A study of Mus musculus with 14 samples.

Results

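Semaphorins, plexins and neuropilins were examined in mouse lung across 3 groups of Affymetrix expression arrays. Of the 45101 probe sets on each array, 79 were annotated to exactly 1 gene symbol of this set and were taken as members by name. The set was chosen with earlier results of these data known. They stood for 32 of the 18193 symbols so annotated, namely 20 semaphorins of classes 3 to 7, 9 plexins, both neuropilins, and Plxna4os1, an RNA named as the antisense partner of Plxna4. All lungs came from C57BL/6 mice aged 20 weeks. The groups were wild type (4 arrays, numbered 1, 3, 4 and 5), CD151KO, lacking the tetraspanin CD151 (5 arrays), and CD9KO, lacking the tetraspanin CD9 (5 arrays). No treatment is named for any group, and the sources used here do not say which part of either gene was removed or whether it was removed in all cells. Nothing in the labels states that each array is its own mouse. The p-values therefore reflect the spread among arrays, which may be technical.

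Semaphorins are secreted or membrane-bound guidance proteins that share a sema domain. Class 3 semaphorins are secreted and mostly bind neuropilins, which have short cytoplasmic tails and hold plexins as signalling partners, while class 4 to 7 members mostly bind plexins directly. Plexins act on small GTPases and so on the cytoskeleton and on adhesion through integrins. In the lung these genes are known for the patterning of vessels, airways and nerves, and neuropilins also bind VEGF, the growth factor of endothelial cells.

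Both deletions were visible in the signals. Cd151 gave 1027 to 1072 signal units in CD151KO against 4991 to 5832 in wild type, and Cd9 gave 614 to 749 in CD9KO against 7998 to 8163 in wild type. The lung markers Sftpc (surfactant protein C), Scgb1a1 (club cells) and Ager (alveolar type 1 cells) had signals of 21087 or more on all 14 arrays. Each gene was followed by its brightest probe set (highest mean signal), levels were put on the scale log2(signal + 16), and 12985 genes passed a filter on low signal. Of the 32 members 28 passed it, with signals from 71.4 to 8318. Sema4g, Sema5b, Sema6b and Plxna4os1 did not pass, with signals between 10.9 and 54.3, and were not tested. Of the 79 member probe sets 58 passed when every probe set was tested as its own row. Differences below are on the log2(signal + 16) scale, which understates the change of dim genes, and adjusted p-values are limma's over all genes tested.

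Without CD151, no semaphorin, plexin or neuropilin passed the test against wild type. The count was 0 of 28 at an adjusted p under 0.05, where 0.778% of all 12985 genes passed (0.454% higher and 0.323% lower), and 0 of 28 had an unadjusted p under 0.05, against 11.1% of all genes. In 0 of 28 the 2 groups did not overlap, against 4.54% of all genes. The median difference of the 28 was 0.02, and 0.01 over all genes. When every probe set was tested, 0 of 58 member probe sets passed, where 0.627% of all 22951 did (0.375% higher and 0.253% lower). An unadjusted p under 0.05 was reached by 1 of 58, where 11.3% of all did. It was the dimmest of the 4 probe sets of Nrp1, which gave 683, 720, 719 and 785 in wild type and 486, 650, 596, 643 and 671 in CD151KO, with no overlap (log2 -0.26, SE 0.09, adjusted p = 0.295).

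The smallest unadjusted p in this comparison belonged to Plxna1, a receptor subunit that pairs with neuropilins. It measured 562, 486, 439 and 483 in wild type and 597, 578, 519, 517 and 501 in CD151KO, so that the groups overlapped (log2 0.14, SE 0.07, adjusted p = 0.462). Sema3c, a secreted semaphorin of vessel and airway development, measured 7081 ± 430 (SD, n = 4) and 7718 ± 604 (n = 5) (log2 0.12, SE 0.07, adjusted p = 0.557). Sema3d, a class 3 semaphorin, gave 166, 168, 217 and 189 in wild type and 162, 218, 214, 228 and 211 in CD151KO (log2 0.15). Sema4f, a membrane semaphorin, gave 235, 248, 260 and 297 against 284, 272, 256, 264 and 315 (log2 0.09), and Sema6d, a membrane ligand of Plxna1, gave 1974, 1671, 1470 and 1446 against 1952, 1486, 1298, 1364 and 1297 (log2 -0.15). The groups overlapped for all 3. Plxnc1 (log2 -0.11), Sema4a (0.06) and Plxnb2 (0.05) completed the 8 members with the smallest p, and for these 3 and the former 3 the adjusted p was 0.600 to 0.698. Single arrays moved some of these values. Without number 1 of wild type the difference was -0.06 for Sema6d, 0.05 for Sema4f and 0.02 for Sema4a, and without number 1 of CD151KO it was -0.26 for Sema6d and 0.22 for Sema3d. Without number 5 of wild type it was 0.16 for Sema4f, without number 5 of CD151KO 0.05 for Sema4f, and without number 4 of wild type 0.22 for Sema3d. On their brightest probe sets all 5 tested class 4 semaphorins had small differences above 0, all 3 tested class 6 semaphorins and both neuropilins had differences below 0, and none of these passed. Sema6a, Sema6c, Sema6d and Nrp2 each also had a tested probe set with a difference above 0 (0.012, 0.025, 0.006 and 0.013).

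The test did not limit all members equally. For Plxnb1, a receptor of Sema4d, the 95% interval of the CD151KO difference was -0.06 to 0.08, and for Sema3b it was -0.11 to 0.07. For Sema7a it was -0.46 to 0.54 and for Plxna2 -0.65 to 0.39, since both varied widely between arrays of a group. A change of moderate size in these 2 genes was therefore not detectable with these arrays.

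**Figure D1:**
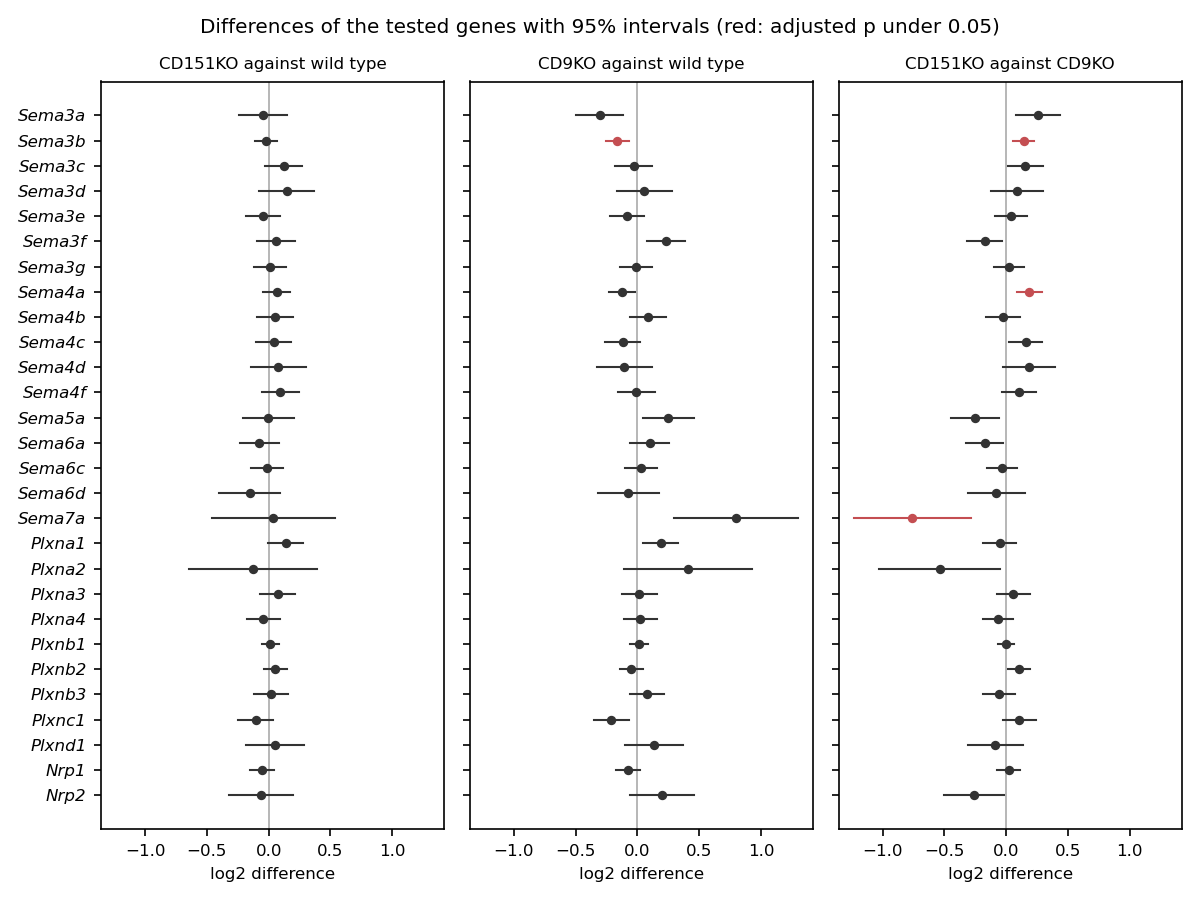
Log2 differences of the 28 tested genes (x axis, log2 scale) in the 3 comparisons (panels), as points with 95% intervals from limma, with genes at an adjusted p under 0.05 in red. No gene is red for CD151KO against wild type, Sema3b is red for CD9KO against wild type, and Sema3b, Sema4a and Sema7a are red for CD151KO against CD9KO.

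In lungs without CD9, 3 of the 7 tested class 3 semaphorins (Sema3b, Sema3a and Sema3f) and Sema7a had the smallest p-values against wild type, and they did not run one way. Sema3b was the single member of 28 that passed, and it fell (5.51% of all genes passed, 2.88% higher and 2.63% lower). Of the 28, 8 had an unadjusted p under 0.05, with differences above 0 for Sema7a, Sema3f, Plxna1 and Sema5a and below 0 for Sema3b, Sema3a, Plxnc1 and Sema4a, or 28.6% against 25.4% of all genes. The groups did not overlap for 4 members (Sema3b, Sema7a, Sema3f and Plxnc1), against 11.8% of all genes. The share of members past these limits was thus near that of the background. The median difference was 0.01, and 0.00 over all genes.

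Sema3b codes for a secreted semaphorin known as a tumour suppressor candidate in lung. Its signal was 492, 443, 454 and 495 in wild type, 453, 472, 459, 464 and 471 for CD151KO, and 421, 413, 426, 443 and 394 for CD9KO. Every CD9KO array lay below every wild type and CD151KO array, but only just, since the highest CD9KO value was 443.3 and the lowest wild type value 443.4. The fall was 1.12-fold (log2 -0.16, SE 0.04, adjusted p = 0.043). All 3 probe sets of Sema3b had lower means in CD9KO than in wild type, with differences of -0.16, -0.18 and -0.11. The call sat close to the threshold. It held in 8 of 26 alternative fits, and among fits that left out 1 array it held only without CD151KO number 1 or 5. Leaving out any 1 array of wild type or of CD9KO, or number 2, 3 or 4 of CD151KO, ended it, at adjusted p from 0.051 to 0.106. Without number 1 of wild type and number 1 of CD151KO together, Sema3b did not pass (log2 -0.14, adjusted p = 0.0987) and 1 other member, Plxna1, did (log2 0.25, adjusted p = 0.0291).

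Sema3f, which signals through Nrp2 and is known for repelling endothelial cells, differed in the other direction. Its brightest probe set gave 779, 966, 983 and 1025 in wild type, 938, 1044, 1004, 1008 and 872 for CD151KO, and 1058, 1156, 1058, 1075 and 1150 for CD9KO. All CD9KO arrays lay above all others, and number 1 of wild type was the lowest of the 14 (log2 0.23, SE 0.07, adjusted p = 0.065). Without that array the difference was 0.15 (adjusted p = 0.158), and without number 5 of wild type it passed (0.28, adjusted p = 0.0476). The other 2 probe sets of Sema3f passed when every probe set was tested, where 6.78% of all probe sets did so (3.09% higher and 3.69% lower). One measured 387 ± 12.8 (SD, n = 4) in wild type, 415 ± 20.9 for CD151KO and 470 ± 27.4 for CD9KO (n = 5 in both), a rise of log2 0.27 in CD9KO (SE 0.05, adjusted p = 0.011). The other measured 328 ± 22.7, 328 ± 18.1 and 387 ± 24.4, a rise of log2 0.23 (SE 0.06, adjusted p = 0.032). Number 1 of wild type was the highest of its group on the former (399) and the lowest of its group on the latter (310). With its 3 probe sets averaged Sema3f passed (log2 0.24, adjusted p = 0.017). The brightest probe set carries the suffix by which the manufacturer marks probes that may also match other transcripts, as do those that represent Sema4a and Sema4f. In the assembly GRCm38.p6 Sema3b and Sema3f lie near each other on chromosome 9, with 3 protein-coding genes between them.

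Sema3a, the founding repellent semaphorin and a ligand of Nrp1, had lower signals in CD9KO on all 3 of its probe sets. The brightest gave 557, 576, 477 and 504 in wild type, 550, 617, 481, 463 and 454 for CD151KO, and 491, 399, 434, 398 and 403 for CD9KO. Number 1 of CD9KO overlapped with wild type, and the other 4 CD9KO arrays lay below all wild type arrays. The difference did not pass (log2 -0.30, SE 0.09, adjusted p = 0.056), and those of the other 2 probe sets were -0.33 and -0.35. It passed without number 2 of CD151KO (adjusted p = 0.0373) or number 1 of CD9KO (adjusted p = 0.0366). Sema3e, the ligand that binds Plxnd1 without a neuropilin, had 4 probe sets with differences from -0.16 to -0.09, and none passed. Sema3c had differences of -0.03 and -0.26 on its 2 probe sets (adjusted p = 0.820 for the gene), Sema3d 0.06 and Sema3g, an endothelial semaphorin, -0.01 (adjusted p = 0.768 and 0.914).

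Sema7a, a membrane-anchored semaphorin that binds Plxnc1 and integrins and is known from fibrosis models of the lung, had the largest difference among the members. Its signal was 526, 909, 1127 and 1116 in wild type, 562, 717, 1025, 1162 and 1255 for CD151KO, and 1354, 1637, 1397, 1784 and 1581 for CD9KO. On its brightest probe set every CD9KO array lay above every other array. The difference between CD9KO and wild type was 1.74-fold (log2 0.80, SE 0.23) and narrowly missed the threshold (adjusted p = 0.056). The dimmer probe set gave 51.9 ± 7.92 (SD, n = 4) in wild type, 58.4 ± 9.66 for CD151KO and 73.8 ± 8.53 for CD9KO (n = 5 in both), and passed when every probe set was tested (log2 0.40, SE 0.10, adjusted p = 0.0285). It lay near the filter on low signal, which was set at 53.4 for the mean of all arrays, and its wild type mean was below that. Without number 1 of wild type the log2 difference of Sema7a was 0.55 (adjusted p = 0.157). Without number 1 of CD151KO it passed (adjusted p = 0.0337).

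**Figure D2:**
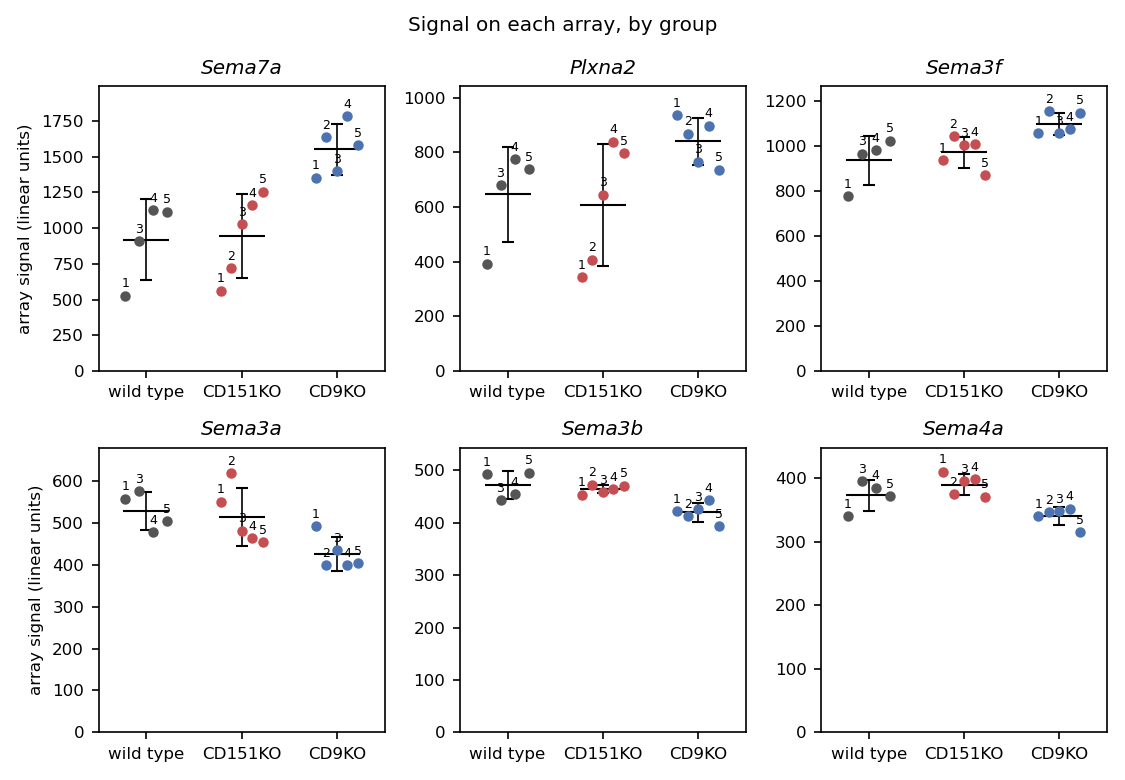
Signal in linear units (y axis) of Sema7a, Plxna2, Sema3f, Sema3a, Sema3b and Sema4a on each of the 14 arrays, by group. Points are arrays with their replicate numbers, long bars are group means and error bars 1 SD. CD9KO arrays lie above all others for Sema7a (1354 to 1784) and Sema3f and below all others for Sema3b, and number 1 of wild type and numbers 1 and 2 of CD151KO are low for both Sema7a and Plxna2.

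Among the receptors no difference between CD9KO and wild type passed. Plxnc1, the receptor of Sema7a, gave 407, 398, 409 and 448 in wild type, 383, 449, 376, 382 and 339 for CD151KO, and 382, 365, 364, 325 and 348 for CD9KO. The CD9KO arrays lay below all wild type arrays (log2 -0.21, SE 0.07, adjusted p = 0.070), and CD151KO spanned both. It passed without number 2 of CD151KO (adjusted p = 0.0413), and its other tested probe set had a difference of -0.08. Plxna1 gave 568, 525, 588, 568 and 560 in CD9KO against 439 to 562 in wild type (log2 0.19, SE 0.07, adjusted p = 0.093). Its second probe set lay below the filter, and with both averaged the difference was 0.02. Without number 1 of wild type Plxna1 passed (log2 0.25, adjusted p = 0.0484). Plxna1, Plxna4, Plxnd1 and Sema4f lie on the chromosome that carries Cd9, and Sema4b on that of Cd151, and none of the members that passed does. Plxnb1, Plxnb2, Plxnb3, Plxnd1, Plxna3 and Plxna4 had differences between -0.05 and 0.14, with adjusted p of at least 0.448. Sema5a, an integral membrane semaphorin that binds Plxna3 among other receptors, gave 118, 124, 163 and 144 in wild type and 180, 159, 162, 159 and 164 in CD9KO (log2 0.25, SE 0.10, adjusted p = 0.121). Sema4a, a class 4 semaphorin of immune cells and epithelia, gave 372.6 ± 24.0 and 340.2 ± 14.6 (log2 -0.12, SE 0.05, adjusted p = 0.131).

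The neuropilins did not pass, and the probe sets of Nrp2 disagreed. Nrp1, the receptor of Sema3a and a partner of the VEGF receptor Kdr, measured 4529 ± 63.9 (SD, n = 4) in wild type, 4358 ± 220 for CD151KO and 4298 ± 264 for CD9KO (n = 5 in both) on its brightest probe set (CD9KO against wild type log2 -0.08, adjusted p = 0.295). All 4 of its probe sets were lower in both knockouts than in wild type, with differences of -0.27 to -0.08 in CD9KO and -0.26 to -0.06 in CD151KO, and none passed. For Nrp2, the receptor of Sema3f, the 4 probe sets fell into 2 pairs. The brightest gave 534, 541, 547 and 540 in wild type, 543, 581, 480, 499 and 491 for CD151KO, and 775, 561, 708, 438 and 691 for CD9KO. CD9KO arrays 1, 3 and 5 were thus high and array 4 was the lowest of all 14. The dimmest one followed the same arrays, with 93.2, 61.0, 106, 55.6 and 86.0 in CD9KO against 51.9 to 72.1 in wild type. The other 2 did not, with CD9KO values of 231 to 281 against 259 to 294 in wild type, and of 131 to 165 against 149 to 170. The differences between CD9KO and wild type were 0.20 and 0.34 for the first pair and -0.09 and -0.08 for the second, and none passed. The sources used here do not say which part of Nrp2 each probe set measures.

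**Figure D3:**
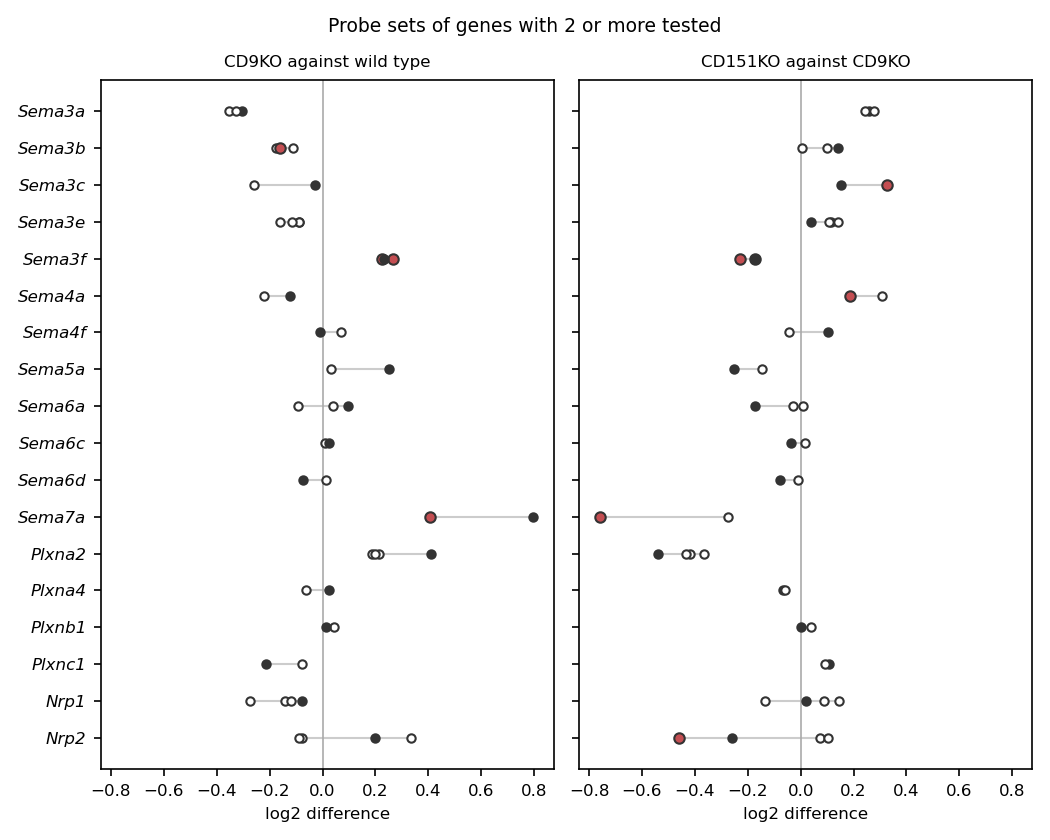
Log2 differences (x axis) of all tested probe sets of the 18 genes with 2 or more, for CD9KO against wild type (left) and CD151KO against CD9KO (right). Black points are the brightest probe sets, open points the other ones, red points those at an adjusted p under 0.05. The probe sets of Sema3a, Sema3b, Sema3f, Sema7a and Plxna2 lie on 1 side of 0 in both panels, and those of Nrp2 on both sides.

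Of the 18 members with at least 2 tested probe sets, 13 had all of them on 1 side of 0 for CD9KO against wild type, 13 for CD151KO against CD9KO and 11 for CD151KO against wild type. In the test of every probe set, 3 of 58 rose and 1 fell in CD9KO against wild type, and they belonged to Sema3f, Sema7a and Sema3b. Of all probe sets 6.78% passed there (3.09% higher and 3.69% lower), so the count was near the background. An unadjusted p under 0.05 was reached by 20 of 58 there and by 24 of 58 for CD151KO against CD9KO, where 25.4% and 25.1% of all probe sets reached it.

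Markers of some other cell types moved with the CD9KO group. The mean log2 level of 6 smooth muscle genes was 9.77 to 10.1 in CD9KO, 9.71 to 9.89 in CD151KO and 9.49 to 9.63 in wild type, with 4 of 6 risen in CD9KO and 1 of 6 in CD151KO. That of 6 cardiac muscle genes was 9.80 to 10.2 in CD9KO against 9.45 to 9.73 in wild type, with 1 of 6 risen, and that of 4 lymphatic endothelial genes 9.60 to 9.73 against 9.36 to 9.53, with 0 of 4 passing (2 of 4 at an unadjusted p under 0.05). The 3 adipocyte genes had a median difference of 0.55 and the 4 neutrophil genes one of -0.50, with 2 of 3 and 1 of 4 at an unadjusted p under 0.05 and none passing. The 6 ciliated cell genes had one of -0.10, with 5 lower and 1 higher, 3 at an unadjusted p under 0.05 and none passing. Of all genes 5.51% passed in CD9KO against wild type, and 25.4% had an unadjusted p under 0.05. One fibroblast gene of 8 and 1 nerve gene of 3 also rose. The 10 blood endothelial markers overlapped, at 10.8 to 10.9 and 10.8 to 11.0, with 1 of 10 fallen. Their part in the results for Sema3b, Sema3f and Sema7a was not tested, and in RNA of a mixed tissue fewer cells of a type and less RNA per cell cannot be told apart.

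The knockouts differed from each other at 3 members. Sema4a and Sema3b were higher in CD151KO and Sema7a was lower in it than in CD9KO, that is 3 of 28 where 10.1% of all genes passed (5.99% higher and 4.12% lower). An unadjusted p under 0.05 was reached by 12 of 28, or 42.9% against 27.6% of all genes, and the groups did not overlap for 5 of 28 against 10.6%. The comparisons against wild type and this one share the CD9KO or CD151KO arrays, so they are not separate evidence.

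Sema4a gave 410, 375, 395, 398 and 371 in CD151KO and 340, 346, 348, 352 and 315 in CD9KO, with wild type at 340, 395, 385 and 371. On this probe set, the brightest, each CD151KO array lay above each CD9KO array, and number 1 of wild type lay among the CD9KO arrays. The difference was 1.14-fold (log2 0.19, SE 0.05, adjusted p = 0.022). Its second probe set gave 265 ± 20.9 and 211 ± 17.9 (n = 5 each; log2 0.31, SE 0.09, adjusted p = 0.054 in the test of every probe set). There number 1 of wild type was not among the CD9KO arrays but was the highest array of all, at 325. The call held in 24 of 26 alternative fits and ended without CD151KO number 1 (adjusted p = 0.059) or CD9KO number 5 (adjusted p = 0.060). Neutrophil markers also separated these groups. The mean log2 level of 4 of them was 8.84 to 10.2 in CD151KO and 8.12 to 8.501 in CD9KO, with 3 of 4 higher in CD151KO. Their part in the difference of Sema4a was not tested.

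Sema3b was 1.10-fold higher in CD151KO than in CD9KO (log2 0.14, SE 0.04, adjusted p = 0.041), with the values given above. This call ended without any 1 array of CD151KO, or without CD9KO number 1, 2, 3 or 5, at adjusted p from 0.064 to 0.105. It also ended with arrays centred on their median (0.0587), with no filter on low signal (0.0570) and with its 3 probe sets averaged (log2 0.08, adjusted p = 0.215). Sema7a was 1.69-fold lower in CD151KO than in CD9KO (log2 -0.76, SE 0.22, adjusted p = 0.042). On its brightest probe set every CD9KO array lay above every CD151KO array. On the dimmer one the groups overlapped (49.6 to 73.0 in CD151KO and 62.7 to 83.3 in CD9KO). The difference there was -0.27 (adjusted p = 0.084 in the test of every probe set). The call on the brightest probe set was lost when wild type number 3 was left out (adjusted p = 0.055), CD151KO number 1 (0.099), 2 (0.097) or 3 (0.058), or CD9KO number 1 (0.053), 2 (0.069), 3 (0.063), 4 (0.091) or 5 (0.088). Sema3a (log2 0.26, adjusted p = 0.065), Sema5a (-0.25, 0.089) and Sema3f (-0.17, 0.109) did not pass in this comparison. Sema3a passed without number 5 of CD151KO (adjusted p = 0.0435) or number 1 of CD9KO (adjusted p = 0.0366), and Sema3f without number 1 of wild type (adjusted p = 0.0264).

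Several other members had an unadjusted p under 0.05 between the knockouts. Plxnb2, a receptor of class 4 semaphorins, measured 1260 ± 44.7 in CD151KO and 1171 ± 68.5 in CD9KO (n = 5 each; log2 0.11, adjusted p = 0.110). Sema4c, a ligand of Plxnb2, measured 267 ± 14.6 and 238 ± 26.2 (log2 0.16, adjusted p = 0.116). Without number 2 of CD9KO both passed (adjusted p = 0.0439 for Plxnb2 and 0.0280 for Sema4c). Sema6a, a membrane semaphorin that binds Plxna2 and Plxna4, had a difference of -0.17, Sema3c of 0.15 and Nrp2 of -0.26, with adjusted p of 0.124, 0.151 and 0.155. The dimmer probe set of Sema3c passed when every probe set was tested (7.7% of all probe sets, 4.54% higher and 3.15% lower), at 821 ± 99.5 in CD151KO and 649 ± 52.9 in CD9KO (log2 0.33, SE 0.08, adjusted p = 0.026). In that test 2 member probe sets were higher and 4 lower in CD151KO, the lower ones being 2 of Sema3f and 1 each of Sema7a and Nrp2, and the second higher one being of Sema4a. The one of Nrp2 was its dimmest (52.8 ± 6.29 in CD151KO and 80.3 ± 21.4 in CD9KO), and its groups overlapped. Of the 4 probe sets of Nrp2, 2 were lower in CD151KO and 2 higher (0.10 and 0.07).

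On their brightest probe sets, Plxna2, a receptor of class 3 and class 6 semaphorins, was lowest on the same 3 arrays as Sema7a. Its brightest probe set gave 392, 679, 775 and 738 in wild type, 343, 407, 644, 838 and 797 for CD151KO, and 935, 868, 765, 897 and 736 for CD9KO. Number 1 of wild type and numbers 1 and 2 of CD151KO were the lowest 3 of the 14 arrays for Plxna2, and also for the brightest probe set of Sema7a. On the dimmer probe set of Sema7a number 1 of wild type was lowest (44.0). There number 3 of wild type (46.2) lay below numbers 1 and 2 of CD151KO (49.6 and 50.6). The likeness of the brightest probe sets did not extend to the CD9KO arrays, where number 1 was the highest for Plxna2 (935) and the lowest for Sema7a (1354). For Plxna2 the difference between CD9KO and wild type was 0.41 (SE 0.24, adjusted p = 0.299) and that between CD151KO and CD9KO -0.54 (SE 0.23, adjusted p = 0.141). All 4 probe sets of Plxna2 had higher means in CD9KO than in either other group. Number 1 of wild type and numbers 1 and 2 of CD151KO had the highest neutrophil marker levels, at 9.52, 10.2 and 10.0, with the other 11 between 8.12 and 9.31. The part of this in the levels of either gene was not tested.

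**Figure D4:**
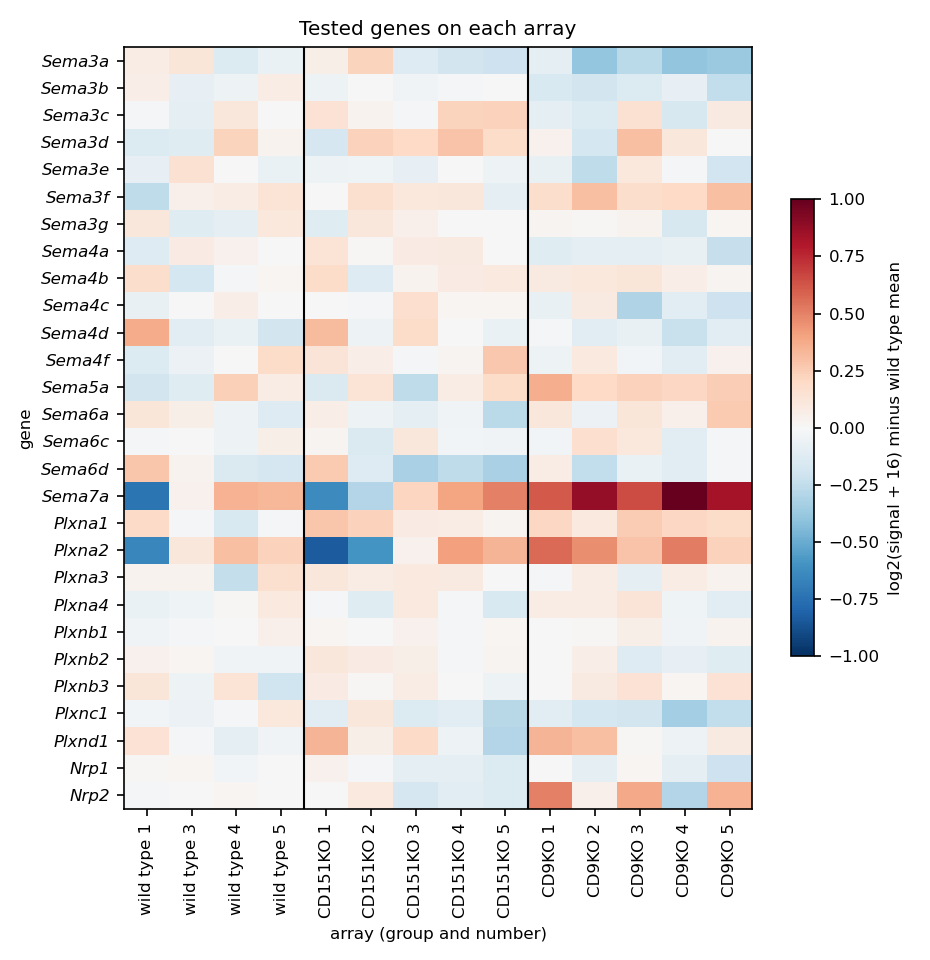
Level of the 28 tested genes (rows) on the 14 arrays (columns), as log2(signal + 16) minus the wild type mean, from blue (lower) to red (higher). Sema7a and Plxna2 are blue on number 1 of wild type and numbers 1 and 2 of CD151KO and red on all 5 CD9KO arrays, and Sema4d and Sema6d are red on number 1 of wild type and number 1 of CD151KO.

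The stretches upstream of the starts of Sema7a and Plxna2 are shown because the brightest probe sets of these 2 members were lowest on the same arrays. Each is the 250 bases before the start, on the plus strand, from RefSeq on GRCm38.p6, at chr9:57939862-57940111 for Sema7a and chr1:194619579-194619828 for Plxna2, with matches to the GC box (GGGCGG on either strand) in capitals.
Sema7a: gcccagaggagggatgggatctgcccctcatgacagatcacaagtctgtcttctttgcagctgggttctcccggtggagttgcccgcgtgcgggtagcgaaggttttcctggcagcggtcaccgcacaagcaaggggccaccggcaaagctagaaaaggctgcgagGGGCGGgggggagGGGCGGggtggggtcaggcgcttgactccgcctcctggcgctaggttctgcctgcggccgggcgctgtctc
Plxna2: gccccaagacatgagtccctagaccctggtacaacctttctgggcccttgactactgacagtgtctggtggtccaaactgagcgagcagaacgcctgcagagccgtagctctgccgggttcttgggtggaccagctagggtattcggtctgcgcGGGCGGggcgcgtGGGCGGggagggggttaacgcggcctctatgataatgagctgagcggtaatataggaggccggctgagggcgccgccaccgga
Both held 2 GC boxes, a motif bound by Sp1-type factors, and 66.4% and 62.8% of their bases were G or C, against a median of 52.4% over the 32851 windows of the table. Of the 37 windows of this gene set, from 26 of its genes, 27 held a GC box, against 32.7% of all windows. Neither stretch held an E-box (CACGTG, in 6.02% of all windows), a TATA box (TATAAA, 12.4%), a cyclic AMP response element (TGACGTCA, 1.55%), a glucocorticoid response element (0.0304%) or a heat shock element (0.466%), each searched on both strands. These matches describe the letters of the window only.

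Of 55 other genes of the pathway tested, 2 rose and 0 fell in CD151KO against wild type, 3 rose and 0 fell in CD9KO, and 6 were higher and 5 lower in CD151KO than in CD9KO. Of all genes 0.778%, 5.51% and 10.1% passed in these comparisons, so that the count for CD9KO against wild type was near the background. In the first of these comparisons the count that passed was 0 without wild type number 4 and 1 without wild type number 3 or 5 or any 1 array of CD151KO. In the second it was 5 without wild type number 5 or CD9KO number 1, and in the third it was 7 without CD151KO number 1.

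Among co-receptors, Nrcam rose in CD151KO. Nrcam, an adhesion molecule that joins neuropilins in semaphorin receptors, measured 90.3 ± 14.2 (SD, n = 4) in wild type, 145 ± 14.1 for CD151KO and 93.0 ± 14.7 for CD9KO (n = 5 in both). It rose in CD151KO against wild type (log2 0.61, SE 0.10, adjusted p = 0.016) and was higher than in CD9KO (log2 0.57, SE 0.10, adjusted p = 0.0035). Of 11 co-receptors tested 1 rose in CD151KO, 0 passed in CD9KO against wild type (2 at an unadjusted p under 0.05), and 3 were higher in CD151KO than in CD9KO. The other 2 were Met, the growth factor receptor that pairs with B plexins (1315 ± 59.3 against 1155 ± 74.7, log2 0.19, adjusted p = 0.019), and Tyrobp, an adaptor joined to Plxna1 in myeloid cells (2379 ± 335 against 1759 ± 142, log2 0.42, adjusted p = 0.020). Of 4 neutrophil markers 3 were also higher in CD151KO than in CD9KO, with a median difference of 1.16, and their part in the difference of Tyrobp was not tested. L1cam measured a difference of 0.18 in CD151KO against wild type (adjusted p = 0.327).

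Proteases that cut semaphorins or neuropilins were 4 in number. Adam17, a sheddase, measured 608.8 ± 14.04 (SD, n = 4) in wild type, 682 ± 11.7 for CD151KO and 594 ± 10.4 for CD9KO (n = 5 in both), and rose in CD151KO (log2 0.16, SE 0.03, adjusted p = 0.030). It was also higher in CD151KO than in CD9KO (log2 0.19, SE 0.03, adjusted p = 0.0020), as was Mmp14, which sheds Sema4d (392 ± 34.4 against 319 ± 15.7, log2 0.28, adjusted p = 0.025). None of the 4 passed in CD9KO against wild type, and 0 had an unadjusted p under 0.05. Some marker lists separated CD151KO from wild type on every array. The mean log2 level was 8.43 to 8.61 against 7.998 to 8.40 for 5 mesothelial genes. It was 14.16 to 14.24 against 14.09 to 14.15 for 5 club cell genes, beside the smooth muscle genes given above. Of the mesothelial and of the club cell genes 0 of 5 passed. In each list 1 of 5 had an unadjusted p under 0.05, against 11.1% of all genes. The part of these lists in the rises of Nrcam and Adam17 was not tested.

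Of 8 VEGF ligands and receptors, Flt1, a VEGF receptor, rose in CD9KO from 1359 ± 170 (n = 4) to 1856 ± 55.6 (n = 5) (log2 0.45, SE 0.07, adjusted p = 0.011). Flt1 and the ligand Vegfd were lower in CD151KO than in CD9KO (log2 -0.38 and -0.52, adjusted p = 0.0051 and 0.0052), and 0 of 8 passed in CD151KO against wild type, where 1 had an unadjusted p under 0.05. Of 32 plexin GTPase partners and effectors, 0 passed in CD151KO against wild type, with 6 at an unadjusted p under 0.05, where 11.1% of all genes were. In CD9KO 2 rose, the GTPase gene Rac1 (6375 ± 84.1 to 6967 ± 140, log2 0.13, adjusted p = 0.015) and the kinase gene Fyn (464 ± 51.4 to 601 ± 23.2, log2 0.37, adjusted p = 0.016). Limk1, a kinase that acts on cofilin, and Rnd1, a GTPase that binds plexins, had differences of 0.51 and -0.53 there (adjusted p = 0.0582 and 0.0695). Between the knockouts Rac1, Fyn and Rras were lower in CD151KO (log2 -0.12, -0.30 and -0.15), and Dpysl3, of the collapsin response mediator family, was higher (log2 0.33, adjusted p = 0.024).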

How the data were processed

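Total RNA of lungs was labelled with biotin and hybridised to 1-colour Affymetrix arrays, per the labels' protocols, and 14 arrays were analysed. The deposited values are normalized intensity values, on a linear scale, with 1 value for each probe set on each array. Affymetrix Expression Console and MAS5 are named, with no role or version, per the submitters' processing notes. The sources used here do not give the method of summary and normalization, and 5.15% of probe sets had a value shared exactly by several arrays. Signals ran from 4.78 to 29667 and array medians from 84.1 to 86.2. For arrays, their number limits the precision.

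Gene symbols came from GEO's annotation of the platform (932 had several symbols and 9211 none, and neither was tested), and 64 control probe sets were left out. Genes below the 40th percentile of mean log2(signal + 16), a signal of 53.4, were not tested. A model of the 3 groups on all 14 arrays was fitted with limma 3.58.1 in R 4.3.3 (lmFit, eBayes with trend, 11 residual degrees of freedom), two-sided, with Benjamini-Hochberg adjustment over all 12985 genes. The threshold was an adjusted p of 0.05. The script was tested on simulated data. Figures used matplotlib 3.10.9.

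The members, lists and tests were chosen with earlier results of these data known. Array values or group means were given for members that passed, that did not overlap at an unadjusted p under 0.05, or that had the 8 smallest p in a comparison. Of each pathway list up to 4 genes of smallest p in a comparison were named, and any that passed. Alternatives were offsets of 1 and 64, quantile normalization, centring on array medians, other filters, the mean of all probe sets, every probe set, only the groups compared, no trend, the replicate number as a block, array weights, leaving out each array, and leaving out the arrays numbered 1 of wild type and CD151KO.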

Additional observations from a re-analysis of the deposited data

Results flagged for a closer look

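Of 84 sets of values (28 members in 3 groups), 4 held an array that stood far from the others of its group by Dixon's measure, the gap to the nearest array divided by the group's range. Chance gives about 1 in 20, so 4 of 84 is near that. Sema3d on number 1 of CD151KO was low at 162, with the other 4 at 211 to 228 (ratio 0.774). Sema3g on number 4 of CD9KO was low at 1855, with the others at 2086 to 2131 (ratio 0.847). Sema4c on number 3 of CD151KO was high at 293, with the others at 257 to 263 (ratio 0.823). Sema5a on number 1 of CD9KO was high at 180, with the others at 159 to 164 (ratio 0.730).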

How the results depend on the processing

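No alternative brought a member past the threshold in CD151KO against wild type, leaving out each array included (0 to 0). For CD9KO against wild type the count of 1 ranged from 0 to 2 when each array was left out in turn, and for CD151KO against CD9KO the count of 3 ranged from 0 to 4. For CD9KO against wild type it was 0 with arrays centred on their median and with no filter on low signal, 2 with a gene's probe sets averaged (as with only the groups compared), 3 with every probe set tested (as genes), and 4 under array weights. With the replicate number as a block 3 members passed (Sema7a, Sema3a and Plxnc1, and no longer Sema3b), and between the knockouts Sema3a passed (adjusted p = 0.0247) and Sema3b did not (0.0622), beside Sema4a and Sema7a. For CD151KO against CD9KO it was 1 with no filter and 5 with every probe set tested. The difference of Sema7a in CD151KO against wild type, near 0, turned to -0.035 with array weights and to -0.038 without number 1 of wild type and of CD151KO, and leaving out single arrays gave -0.21 to 0.20. That of Sema3b turned to 0.0072 without the same 2 arrays, with -0.049 to 0.0022 over single arrays. The cause was not tested. Some same-numbered arrays deviated together and others did not (correlations of deviations from the group means -0.13 to 0.59 for CD151KO and wild type, 0.00 to 0.18 for CD9KO and wild type, and -0.10 to 0.21 for the knockouts). For CD151KO and wild type, numbers 1, 4 and 5 gave 0.59, 0.45 and 0.26 and number 3 gave -0.13. In the 3 comparisons 2 of 4, 3 of 4 and 1 of 5 arrays correlated best with their own number. The labels do not state a pairing, so the numbers were not taken to pair the samples. Whether some numbers share a factor was not tested. Of the pathway genes, 2, 3 and 11 of which passed in the 3 comparisons, 0 to 2, 3 to 5 and 7 to 14 passed when single arrays were left out, and with the replicate block 1 passed in CD151KO and 10 in CD9KO against wild type. Genes with signals near the background are limited by their precision.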

Other observations

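On their brightest probe sets Sema4d, a semaphorin of lymphocytes, and Sema6d followed single arrays rather than groups. Sema4d gave 326 on number 1 of wild type and 314 on number 1 of CD151KO, and 210 to 284 on the other 12 arrays. Sema6d gave 1974 and 1952 on these 2 arrays and 1297 to 1713 on the others. Its other tested probe set was highest on number 1 of CD151KO (145) but not high on number 1 of wild type (103, the lowest of that group). No other probe set of Sema4d passed the filter. The mean log2 level of 4 B and plasma cell markers was 9.37 and 9.80 on number 1 of wild type and of CD151KO and 8.12 to 9.01 on the others. Whether this bears on either gene was not tested.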
